A study of Rattus norvegicus with 8 samples.

Results

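Interferon response and antigen processing genes were examined in rat cultures exposed to fibroblast growth factor 9 (FGF9), a protein that cells secrete and that signals through FGF receptors. The set was given as 39 gene names, and a gene was taken as measured if a feature of the array table carried that symbol and no other in the platform annotation. Of these, 35 were measured among 14506 genes in all, each by 1 feature. Cd274, Parp14, Samhd1 and Xaf1 were not analysed here. The 35 genes fall into 5 transcription factors, 2 sensors of viral RNA, 11 antiviral effectors, 6 genes of ISG15, ubiquitin and ADP-ribose conjugation, 4 interferon-induced GTPases and other induced genes, 3 immunoproteasome subunits and 4 genes of peptide transport and loading.

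The 4 groups were FGF9 24 h, control 24 h, FGF9 10 days and control 10 days, with 2 arrays each and 8 arrays in all. All were myelinating cultures of Sprague Dawley spinal cord taken at embryonic day 15.5, in which neurons and glia grow together. FGF9 cultures received human FGF9 at 100 ng/ml for 24 h or 10 days, and control cultures were untreated for the same times. The source field of the labels names neurosphere-derived astrocytes for every sample, while titles and cell type labels name myelinating cultures, and the samples are called myelinating cultures here. The growth protocol also describes astrocyte layers made from neurospheres of newborn rat striatum, and the labels used here do not say how much of the RNA came from such astrocytes. Nothing in the labels says that replicates were separate cultures, so p-values measure only the spread between these arrays, which may be technical. RNA came from whole cultures, so fewer cells of a type and less RNA per cell cannot be told apart.

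Interferons are secreted proteins that bind receptors on the cell surface, and the receptors act through Janus kinases. Type I interferons such as interferon beta act through a complex that holds STAT2 and IRF9 and binds the interferon-stimulated response element in the promoters of antiviral genes. Interferon gamma acts mainly at gamma-activated sites and, with IRF1, switches on the immunoproteasome and the transporter that feeds peptides to class I molecules of the major histocompatibility complex (MHC). These roles are known mainly from human and mouse cells. In the central nervous system astrocytes, microglia and oligodendrocytes all respond to interferons, and neurons normally keep class I presentation low.

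The deposited values are log2 signals, and array medians lay between 6.62 and 6.73, with 5th percentiles of 4.79 to 4.89. An FGF9 array and the control array of the same number and time are called a pair, and the names of both begin with one prefix. Pair 2 at 10 days carries a prefix of its own (AA1), and its 2 arrays correlated with the 6 others at 0.897 to 0.94 across features, against 0.962 to 0.989 among the 6. The median level of FGF-ERK feedback genes, which FGF receptor signalling switches on, was 8.42 and 8.41 in FGF9 arrays and 7.55 and 7.70 in control arrays at 24 h. It was 8.67 and 9.65 in FGF9 arrays and 7.11 and 7.65 in control arrays at 10 days. Medians of astrocyte, neuron and myelin markers lay between 9.88 and 13.18 in every array, and those of lymphocyte markers between 5.04 and 5.53. Each difference below is FGF9 minus control in log2 units with the standard error (SE) of the limma fit over all genes (n = 2 per group), and the SE with the pair as a block is given where named. The number of arrays limits the precision of every value.

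After 24 h most members were lower in FGF9 than in control cultures, with a mean difference below 0 in 26 of 35. Of all 14506 genes 7292 had a mean difference below 0. The member median was -0.24, against a median of -0.0015 over all genes. Both pairs were lower for 19 of the 35 members (54.3%), beside 32.9% of all genes, and both were higher for 4 members (11.4%), beside 31.8% of all genes. The 2 FGF9 values lay below both control values for 12 members, beside 14.5% of all genes, and above both for 3 members, beside 17.5% of all genes. The pairs were unequal: 31 members were lower in pair 1, where the median was -0.48, and 19 were lower in pair 2, where it was -0.02. Of all 14506 genes 7410 were lower in pair 1 and 7261 in pair 2, so the count in pair 2 lay near its background. No member passed an adjusted p of 0.05 in limma, either without the block (0% of all genes passed) or with it (0% of all genes). At an unadjusted p under 0.05 with the block, 10 members were lower, beside 6.53% of all genes, and 1 was higher, beside 5.88% of all genes. Both pairs were lower by over 0.5 for 4 members (Mx2, Rsad2, Cmpk2 and Herc6), beside 1.93% of all genes, and higher by over 0.5 for 1 (Gbp2), beside 2.36% of all genes. Leaving out FGF9 replicate 1 or control replicate 1 moved the member median to -0.0631 or -0.145. At an unadjusted p under 0.05 without the block the counts were 1 lower, beside 0.696% of all genes, and 0 higher, beside 1.23% of all genes.

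After 10 days 6 of 7 antigen processing members were higher in both pairs, and the set as a whole had no common direction. The median over the 35 members was 0.10, against 0.02 over all genes, with pair medians of -0.18 and 0.28. Both pairs were higher for 12 members (34.3%), beside 33.2% of all genes, and both were lower for 7 (20%), beside 30% of all genes, so neither count stood far above its background. All 4 peptide transport and loading genes and 2 of 3 immunoproteasome subunits were among the 12, while 4 of 11 antiviral effectors were among the 7, a share close to that of all genes. Counted within pair 2, 4 of the 11 effectors were lower, with a median of 0.12, and within pair 1, 10 were lower, with a median of -0.67. Of all 14506 genes 7038 were lower in pair 2 and 7010 in pair 1. The groups did not overlap for 4 members that were higher, beside 14.9% of all genes, and for 1 that was lower, beside 11.3% of all genes. In limma with the block 1 member rose, Tap1, 1 of 35 or 2.86% of the members beside 3.12% of all genes, and no member fell, beside 3.31% of all genes. At an unadjusted p under 0.05 with the block 5 members were higher, beside 12.7% of all genes, and 2 were lower, beside 11.2% of all genes. Both pairs were lower by over 0.5 for Mx2, Oas1a and Isg15, beside 5.14% of all genes, and higher by over 0.5 for Ifih1 and Tap1, beside 5.17% of all genes. The member median was -0.311 without FGF9 replicate 2, 0.408 without FGF9 replicate 1, 0.278 without control replicate 2 and 0.0122 without control replicate 1. Without the block 0% of all genes passed and no member did, with 2 members higher at an unadjusted p under 0.05, beside 3.93% of all genes, and 0 lower, beside 1.7% of all genes.

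**Figure D1:**
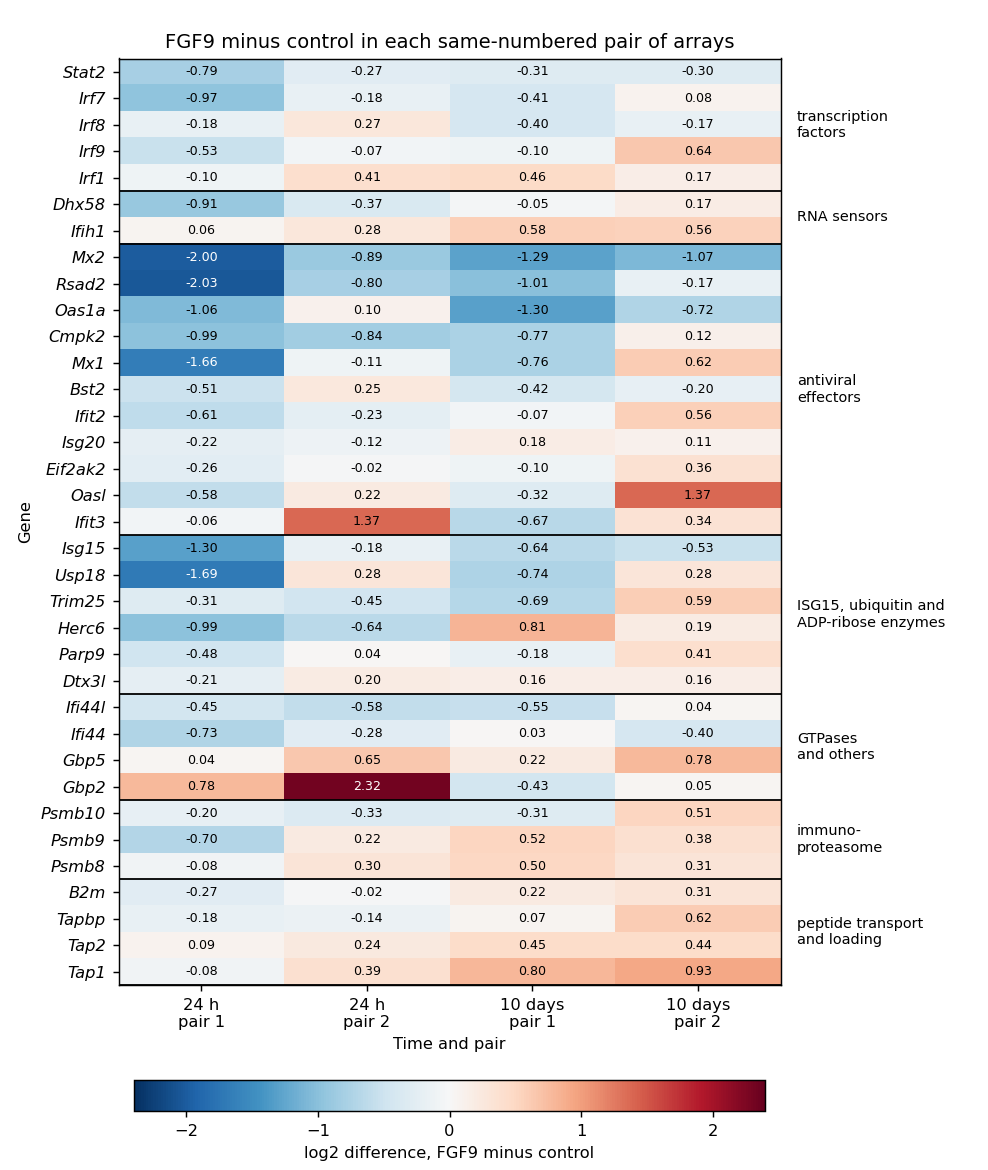
Heat map of the log2 difference, FGF9 minus control, for each of the 35 measured members (rows, grouped by role) in each same-numbered pair of arrays (columns), with red for higher and blue for lower in FGF9 cultures. Mx2, Rsad2, Isg15 and Stat2 are blue in all 4 pairs (4 of 35 members, beside 14.1% of all genes). Tap1, Tap2, Psmb8 and Psmb9 are red in both pairs at 10 days, where 33.2% of all genes were higher in both.

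Promoter letters were read from the genome sequence and not from the arrays. The set was named for the response to interferons, which act through these elements. A high share of the letters therefore follows largely from how the genes were chosen. RefSeq windows of 300 bases on the GRCr8 assembly, from 250 bases before the gene start to 50 after it, were found for 30 of the 35 members. Mx2, Ifit2, Dhx58, Isg15 and Usp18 were not among them. The core letters of the response element, GAAA followed by any 2 bases and again GAAA, were present on either strand in 19 of 30 member windows (63.3%), against 3.77% of all 27457 windows of that length. The letters TTCNNNGAA of the gamma-activated site, whose letters are their own reverse complement, were present in 7 of 30 (23.3%), against 8.68% of all windows. All 4 genes of peptide transport and loading and all 4 of the GTPase group held the response element letters, as did 6 of 9 antiviral effectors. A match is a description of the letters and not evidence of binding. Median differences were -0.14 in the 19 genes with the letters and -0.30 in the 11 without them at 24 h, and 0.13 and 0.12 at 10 days. Windows to print were chosen among those that hold the letters and belong to members described in every array below. Outside antigen processing, the 4 with the smallest unadjusted limma p with the block at 24 h were taken. Within antigen processing, Tap1 had the smallest such p at 10 days. The windows printed are those of Gbp2 at chr2:234005477-234005776 (+ strand), Rsad2 at chr6:48788071-48788370 (- strand), Ifit3 at chr1:241527076-241527375 (+ strand), Oas1a at chr12:41330216-41330515 (+ strand) and Tap1 at chr20:4668494-4668793 (- strand). They are written 5′ to 3′ on the strand of the gene, and capitals mark the response element letters, which start 31 bases before the gene start in Gbp2, 147 in Rsad2, 44 in Ifit3 and 121 in Tap1. In Oas1a there are 2 overlapping matches, at 41 and 35 bases before the start.
Gbp2: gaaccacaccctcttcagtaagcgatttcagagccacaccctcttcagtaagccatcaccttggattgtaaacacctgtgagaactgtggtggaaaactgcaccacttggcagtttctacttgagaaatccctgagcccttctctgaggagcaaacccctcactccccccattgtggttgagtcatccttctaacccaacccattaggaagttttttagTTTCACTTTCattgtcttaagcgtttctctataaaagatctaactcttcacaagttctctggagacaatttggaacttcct
Rsad2: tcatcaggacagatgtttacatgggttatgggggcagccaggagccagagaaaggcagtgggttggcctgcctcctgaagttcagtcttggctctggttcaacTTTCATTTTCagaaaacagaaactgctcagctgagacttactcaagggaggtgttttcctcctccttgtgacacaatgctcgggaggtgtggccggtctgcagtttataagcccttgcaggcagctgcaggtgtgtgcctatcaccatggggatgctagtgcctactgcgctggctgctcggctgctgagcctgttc
Ifit3: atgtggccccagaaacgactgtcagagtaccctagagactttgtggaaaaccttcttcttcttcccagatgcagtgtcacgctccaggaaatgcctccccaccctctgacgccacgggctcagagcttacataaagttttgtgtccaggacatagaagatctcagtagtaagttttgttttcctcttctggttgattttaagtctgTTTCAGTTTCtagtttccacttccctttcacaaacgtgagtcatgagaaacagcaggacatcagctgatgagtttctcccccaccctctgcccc
Oas1a: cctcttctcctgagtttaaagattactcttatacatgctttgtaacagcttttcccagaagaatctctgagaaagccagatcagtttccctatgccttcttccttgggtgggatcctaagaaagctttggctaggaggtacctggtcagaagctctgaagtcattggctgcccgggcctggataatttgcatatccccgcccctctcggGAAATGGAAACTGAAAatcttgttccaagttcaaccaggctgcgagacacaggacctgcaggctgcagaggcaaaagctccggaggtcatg
Tap1: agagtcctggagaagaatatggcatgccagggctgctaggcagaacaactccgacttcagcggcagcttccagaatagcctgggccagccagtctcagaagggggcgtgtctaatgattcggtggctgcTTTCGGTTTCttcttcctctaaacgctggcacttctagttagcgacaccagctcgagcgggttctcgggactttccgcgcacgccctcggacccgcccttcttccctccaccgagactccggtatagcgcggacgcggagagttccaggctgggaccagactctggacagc

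Among the transcription factors, Stat2, the STAT protein specific to type I interferon signalling, was lower in FGF9 arrays in every pair. Of all genes 14.1% were lower in all 4 pairs. Stat2 values at 24 h were 8.50 and 8.83 in FGF9 arrays and 9.30 and 9.10 in control arrays, and the groups did not overlap. The difference was -0.53 ± 0.26 (± 0.17 with the block, unadjusted p = 0.0189, adjusted p = 0.308). At 10 days Stat2 stood at 9.21 and 9.64 in FGF9 arrays and 9.52 and 9.95 in control arrays, with pair differences of -0.31 and -0.30 that were close in size while the groups overlapped. Irf7, which amplifies interferon production, differed by -0.57 ± 0.45 at 24 h and -0.17 ± 0.45 at 10 days, and Irf9, the DNA-binding partner of STAT2, by -0.30 ± 0.29 and 0.27 ± 0.29. Irf1, the factor linked to interferon gamma, differed by 0.15 ± 0.24 at 24 h and 0.31 ± 0.24 at 10 days. Irf8, a factor of microglia and other myeloid cells, differed by 0.04 ± 0.41 and -0.28 ± 0.41. None of the 5 passed over all genes in limma at either time, with or without the block.

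The 2 sensors of viral RNA in the set did not share a direction. Ifih1 encodes MDA5, which recognises long viral RNA duplexes, and its values at 10 days were 8.50 and 8.19 in FGF9 arrays and 7.92 and 7.63 in control arrays. Both FGF9 arrays were above both controls, with a difference of 0.57 ± 0.21 and nearly equal pair values of 0.58 and 0.56. With the block its SE was 0.14 and the adjusted p was 0.065, so it did not pass. At 24 h Ifih1 stood at 7.86 and 7.83 in FGF9 arrays and 7.80 and 7.56 in control arrays. Dhx58, which encodes the related protein LGP2, differed by -0.64 ± 0.39 at 24 h, with 5.63 and 5.64 in FGF9 arrays against 6.54 and 6.02 in control arrays, and by 0.06 ± 0.39 at 10 days. These values of Dhx58 at 24 h were low for the arrays.

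Of the 11 antiviral effectors, 10 had a mean below 0 at 24 h, beside 7292 of all 14506 genes. Lower in both pairs were 7 of the 11, beside 32.9% of all genes. The groups did not overlap for 5 of the 11, all lower, beside 14.5% of all genes. The largest difference was in Mx2, a dynamin-like GTPase that traps viral particles, with 8.37 and 8.35 in FGF9 arrays and 10.37 and 9.24 in control arrays. The FGF9 arrays were almost equal, and the controls were both above them and 1.13 apart. The difference was -1.45 ± 0.51 (± 0.26 with the block, unadjusted p = 0.00159, adjusted p = 0.147), with pair values of -2.0 and -0.89. At 10 days Mx2 stood at 8.39 and 9.38 in FGF9 arrays and 9.67 and 10.46 in control arrays, again without overlap, and the pair values were -1.29 and -1.07. That difference was -1.18 ± 0.51 (± 0.26 with the block), and the limma adjusted p was 0.0564 with the block, so it did not pass. Mx2 was the 1 member lower without overlap at both times.

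Rsad2, which encodes viperin, a radical enzyme that makes a chain-terminating nucleotide, had 5.47 and 5.06 in FGF9 arrays and 7.50 and 5.85 in control arrays at 24 h. Both FGF9 arrays were below both controls, with pair values of -2.03 and -0.80, and the FGF9 values were close to the lowest of the arrays. The difference was -1.41 ± 1.03 (± 0.33 with the block, unadjusted p = 0.00535, adjusted p = 0.225). At 10 days Rsad2 had 5.35 and 7.97 in FGF9 arrays and 6.36 and 8.14 in control arrays, and the distance between the pairs exceeded that between the groups. Cmpk2, a mitochondrial nucleotide kinase whose gene lies next to Rsad2 on chromosome 6 in GRCr8, had 7.43 and 7.33 in FGF9 arrays and 8.42 and 8.16 in control arrays at 24 h. Its pair values were close, at -0.99 and -0.84, and the difference was -0.91 ± 0.75 (± 0.23 with the block, adjusted p = 0.235). At 10 days Cmpk2 had 7.52 and 9.72 in FGF9 arrays and 8.29 and 9.60 in control arrays, with pair values of -0.77 and 0.12.

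Oas1a, a 2′-5′ oligoadenylate synthetase of a gene family with several similar copies in the rat that the array may not separate, was lower in both pairs at 10 days. It had 5.38 and 7.62 in FGF9 arrays and 6.68 and 8.34 in control arrays, so the groups overlapped although each FGF9 array was below its own control, and the difference was -1.01 ± 0.91 (± 0.30 with the block, adjusted p = 0.106). At 24 h it had 6.19 and 5.89 in FGF9 arrays and 7.25 and 5.79 in control arrays, with pair values of -1.06 and 0.10. Mx1, the nuclear Mx protein of rodents, had 6.03 and 5.46 in FGF9 arrays and 7.69 and 5.57 in control arrays at 24 h. At 10 days Mx1 had 5.23 and 8.96 in FGF9 arrays and 5.98 and 8.34 in control arrays, and the pairs gave opposite signs (-0.76 and 0.62). Eif2ak2, the kinase PKR that halts translation on viral RNA, lay between 9.31 and 9.93 in all 8 arrays and differed by -0.14 ± 0.19 at 24 h and 0.13 ± 0.19 at 10 days.

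Single arrays set apart other effectors. Ifit3, an RNA-binding repeat protein, had 5.65 and 6.97 in FGF9 arrays and 5.71 and 5.60 in control arrays at 24 h, and 5.19 and 5.54 in FGF9 arrays against 5.86 and 5.2 in control arrays at 10 days. The value of 6.97 in replicate 2 stood alone. Oasl, an OAS-like protein, had 4.98 and 5.19 in FGF9 arrays and 5.57 and 4.97 in control arrays at 24 h, close to the low end of the arrays. At 10 days Oasl had 5.00 and 7.15 in FGF9 arrays and 5.32 and 5.78 in control arrays, and the high value again belonged to 1 FGF9 array. The difference for Oasl in pair 2 alone was 1.37. Ifit2 (-0.42 ± 0.30), the RNase Isg20 (-0.17 ± 0.48) and tetherin, encoded by Bst2 (-0.13 ± 0.53), lay closer to 0 at 24 h, and at 10 days their differences were 0.24 ± 0.30, 0.15 ± 0.48 and -0.31 ± 0.53.

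Isg15, a ubiquitin-like protein that is attached to newly made proteins, was lower in all 4 pairs, as were 14.1% of all genes. It had 5.95 and 6.10 in FGF9 arrays and 7.26 and 6.29 in control arrays at 24 h, without overlap, and the difference was -0.74 ± 0.43 (± 0.26 with the block, adjusted p = 0.354). At 10 days it had 6.30 and 7.06 in FGF9 arrays and 6.94 and 7.59 in control arrays, with pair values of -0.64 and -0.53 and a difference of -0.58 ± 0.43 (± 0.26 with the block, adjusted p = 0.251). Usp18, which removes ISG15 and dampens the receptor, had pair values of -1.69 and 0.28 at 24 h and -0.74 and 0.28 at 10 days. Herc6, the ISG15 ligase of mouse, was lower in both pairs at 24 h (-0.81 ± 0.86; ± 0.19 with the block) and higher in both at 10 days (0.50 ± 0.86; ± 0.19 with the block). Trim25, a ubiquitin ligase that activates RIG-I, had pair values of -0.31 and -0.45 at 24 h and -0.69 and 0.59 at 10 days. Parp9 and Dtx3l, neighbouring genes whose proteins form a complex that modifies histones and ubiquitin, differed by between -0.22 and 0.16 at both times. All 6 of these genes had a mean below 0 at 24 h, 3 of them in both pairs, and 3 of 6 had a mean below 0 at 10 days. Of all 14506 genes 7292 had a mean below 0 at 24 h and 6789 at 10 days. Lower in both pairs at 24 h were 32.9% of all genes. None of the 6 passed over all genes in limma with or without the block.

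Gbp2, a guanylate-binding GTPase that attacks the membranes around intracellular microbes and is also induced in reactive astrocytes, ran against the effectors at 24 h. It had 9.28 and 11.37 in FGF9 arrays and 8.50 and 9.04 in control arrays, and both FGF9 arrays were above both controls. The difference was 1.55 ± 0.69 (± 0.35 with the block, unadjusted p = 0.00476, adjusted p = 0.212), with 0.78 in pair 1 and 2.32 in pair 2. At 10 days it had 9.01 and 8.63 in FGF9 arrays and 9.44 and 8.57 in control arrays, a difference of -0.19 ± 0.69. The difference between the times was -1.74 ± 0.97 (± 0.50 with the block, adjusted p = 0.273 for the interaction). Gbp5, a relative that lies close to Gbp2 on chromosome 2, was higher in all 4 pairs, by between 0.04 and 0.78. Of all genes 14.2% were lower in none of the 4 pairs. Ifi44 and Ifi44l, adjacent genes of uncertain function, had close differences of -0.50 ± 0.41 and -0.51 ± 0.55 at 24 h and -0.19 ± 0.41 and -0.25 ± 0.55 at 10 days. The 2 Gbp genes and the 2 Ifi44 genes had opposite signs at 24 h.

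**Figure D2:**
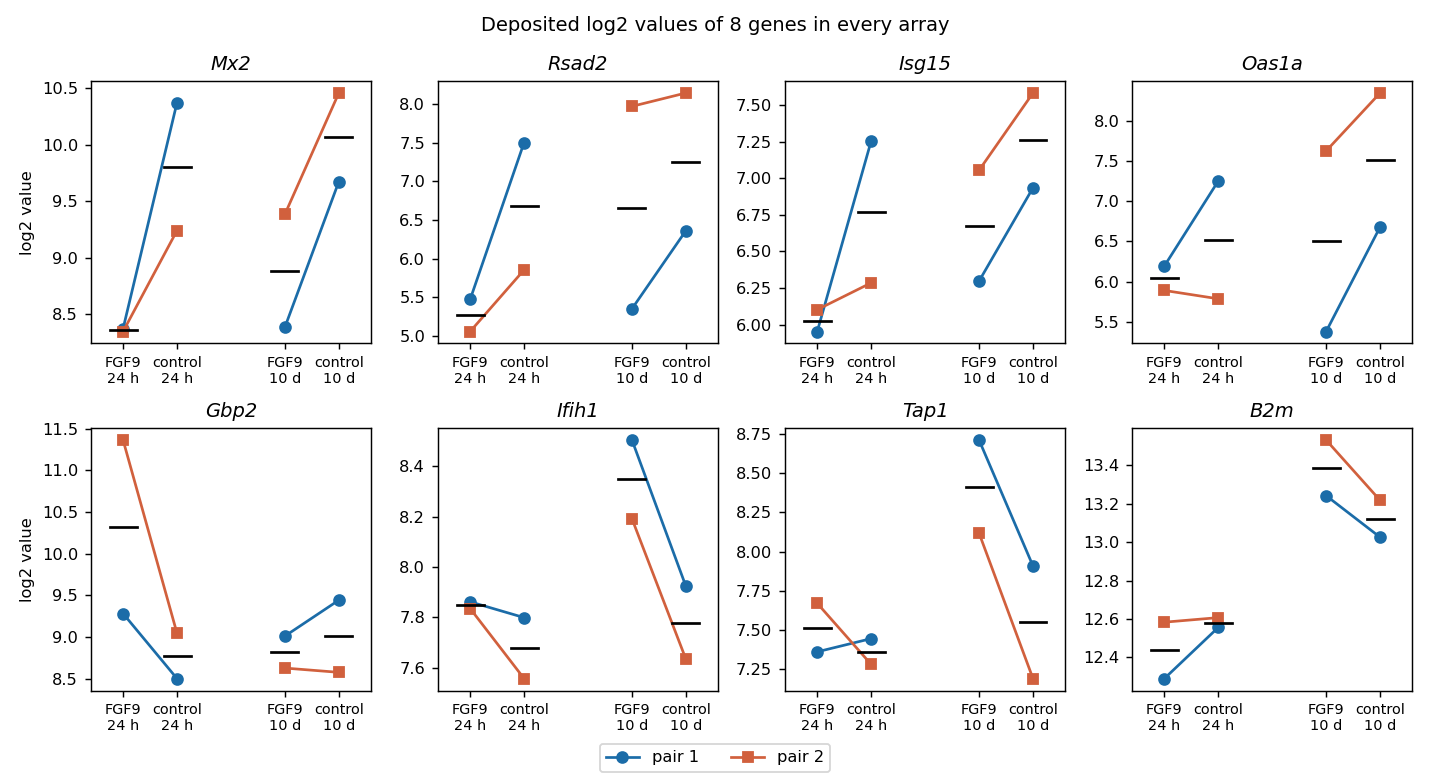
Deposited log2 values of 8 members in every array, with FGF9 left of control at each time; lines join the arrays of a pair, circles are pair 1, squares are pair 2, and black bars are group means of 2 arrays. Mx2 and Isg15 slope upward from FGF9 to control in all 4 pairs, and Tap1 and Ifih1 slope downward in both pairs at 10 days.

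Of the 7 antigen processing members, 6 were higher in both pairs at 10 days, beside 33.2% of all genes. Tap1, Tap2, Psmb8 and Psmb9 among them are neighbouring genes. With the block 1 of the 7 rose, beside 3.12% of all genes, and without the block none passed. Tap1, a subunit of the transporter that carries peptides into the endoplasmic reticulum, had 8.71 and 8.12 in FGF9 arrays and 7.91 and 7.19 in control arrays, and both FGF9 arrays were above both controls. It was the 1 member that passed, rising by 0.87 ± 0.16 with the block (SE, n = 2 per group; limma adjusted p = 0.0396), with pair values of 0.80 and 0.93. Without the block the SE was 0.32 and the adjusted p was 0.835, and with the pair as a random effect the adjusted p was 0.0892. In the block fit without either 24 h pair the adjusted p was 0.0571, so it did not pass. At 24 h Tap1 had 7.36 and 7.67 in FGF9 arrays and 7.44 and 7.28 in control arrays, a difference of 0.15 ± 0.32. The partner subunit Tap2 had 8.19 and 7.72 in FGF9 arrays and 7.74 and 7.28 in control arrays at 10 days, with pair values of 0.45 and 0.44 (0.44 ± 0.25; ± 0.13 with the block, adjusted p = 0.111). Tapbp, tapasin, which docks the transporter to class I molecules, differed by 0.35 ± 0.69 at 10 days, with 0.07 and 0.62 in the pairs.

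B2m, the invariant light chain of class I molecules, had 13.24 and 13.53 in FGF9 arrays and 13.03 and 13.22 in control arrays at 10 days, and both FGF9 arrays were above both controls by a small margin (0.27 ± 0.20). At 24 h B2m had 12.29 and 12.58 in FGF9 arrays and 12.56 and 12.61 in control arrays (-0.15 ± 0.20). The immunoproteasome subunits, which replace the standard catalytic subunits of the proteasome, differed at 10 days by 0.40 ± 0.31 for Psmb8, 0.45 ± 0.39 for Psmb9 and 0.10 ± 0.52 for Psmb10. Psmb8 had 7.45 and 6.96 in FGF9 arrays and 6.95 and 6.66 in control arrays, Psmb9 was higher in both pairs, and Psmb10 had pair values of -0.31 and 0.51. The standard subunits they replace had differences of -0.11 ± 0.39 (Psmb5), 0.02 ± 0.58 (Psmb6) and 0.40 ± 0.18 (Psmb7) at 10 days. Tap2, Psmb8, Tap1 and Psmb9 lie side by side on chromosome 20 in GRCr8 with 0 protein-coding genes between neighbours, and all 4 were higher in both pairs at 10 days. At 24 h these 4 had differences between -0.24 and 0.16.

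**Figure D3:**
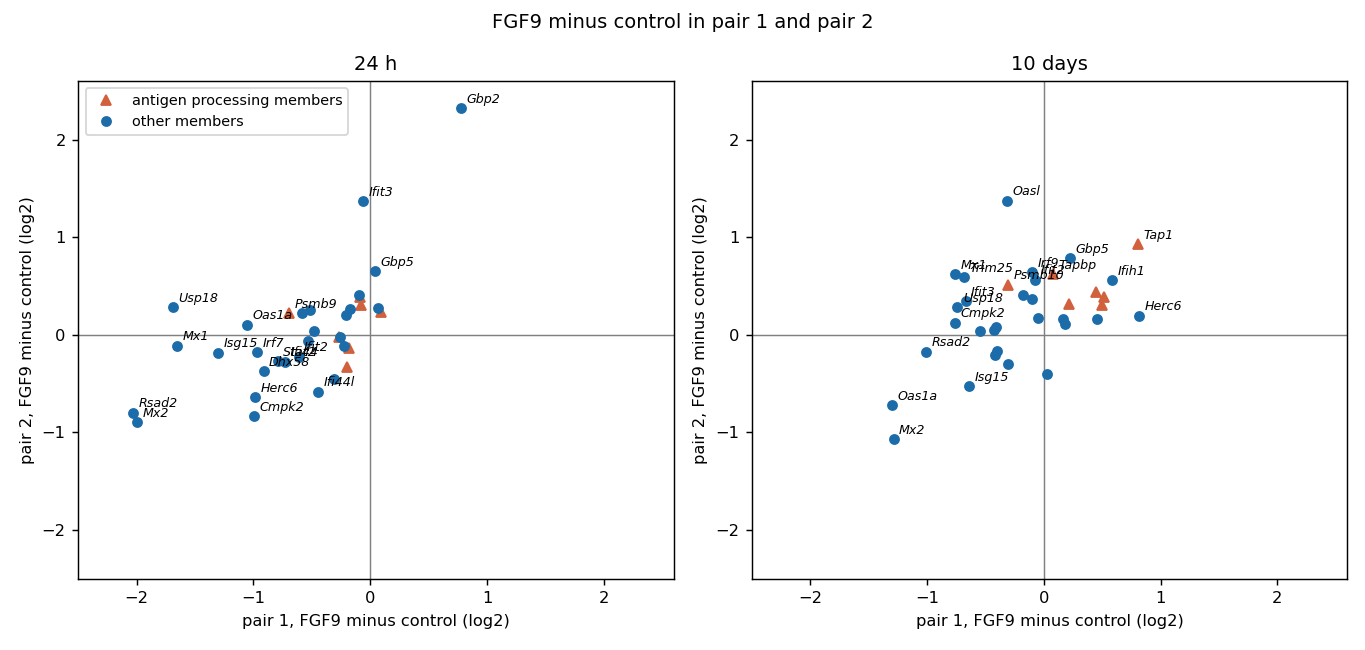
Log2 difference, FGF9 minus control, in pair 1 (horizontal axis) and pair 2 (vertical axis) for each measured member at 24 h (left) and 10 days (right); triangles are immunoproteasome and peptide transport and loading genes, circles the other members. Points in the lower left, such as Mx2 and Rsad2, are lower in both pairs, and at 10 days 6 of 7 triangles lie in the upper right. Of all genes 33.2% were higher in both pairs at 10 days.

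The change of the FGF9 effect with time was tested as the interaction. No member passed in limma, without the block (0% of all genes passed) or with it (0.0483% of all genes passed in either direction, with a smallest adjusted p among members of 0.237). Differences were more positive at 10 days than at 24 h by 1.32 ± 1.22 for Herc6 (± 0.27 with the block), 0.71 ± 0.55 for Dhx58 (± 0.25), 0.71 ± 0.46 for Tap1 (± 0.23) and 0.41 ± 0.29 for B2m (± 0.20). At an unadjusted p under 0.05 with the block 3 members were higher, beside 7.58% of all genes, and 1 was lower, beside 5.29% of all genes. In control cultures alone 29 of 35 members were higher at 10 days than at 24 h by their means, beside 7249 of 14506 genes. The member median was 0.39, against -0.0001 over all genes. The fit with the block compares the times through the pairs that share a prefix and draws on their FGF9 arrays as well as their control arrays. In that fit 20 of 35 members were higher, beside 7187 of 14506 genes. The member median was 0.10, against -0.0032 over all genes. Leaving out each array in turn gave medians between 0.143 (without control 24 h replicate 2) and 0.636 (without control 10 days replicate 1). None passed in limma, without the block (0% of all genes passed) or with it (0.00689% of all genes passed). Within prefix CL2, which holds 1 control array of each time (pair 1 at 10 days and pair 2 at 24 h), 31 of 35 were higher at 10 days. Of all 14506 genes 7319 were higher there. The member median was 0.34, against 0.0035 over all genes. B2m in control arrays was 13.03 and 13.22 at 10 days and 12.56 and 12.61 at 24 h, without overlap.

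Distances between the pairs exceeded the FGF9 difference for most members at 10 days and for fewer at 24 h. At 10 days the mean gap between pair 2 and pair 1 was larger than the mean FGF9 difference for 27 of 35 members (77.1%), beside 67.4% of all genes, and the median absolute gap was 0.71 against 0.37 over all genes. Mx1 was higher in pair 2 than in pair 1 by 3.73 in FGF9 arrays and 2.36 in control arrays, Usp18 by 2.72 and 1.69, Rsad2 by 2.62 and 1.78 and Oas1a by 2.24 and 1.67. Bst2 (-1.06 in FGF9 arrays and -1.28 in control arrays) and Tapbp (-1.36 and -1.91) were lower in pair 2. At 24 h the gap was larger than the FGF9 difference for 16 of 35 members (45.7%), beside 60.8% of all genes. It was mainly in the control arrays for several effectors: Mx1 differed between pair 2 and pair 1 by -0.57 in FGF9 arrays and -2.11 in control arrays, Oas1a by -0.30 and -1.46, Rsad2 by -0.41 and -1.65 and Mx2 by -0.03 and -1.13. The control array of pair 1 at 24 h was the higher of the 2 control arrays for these genes. The prefix differs between the pairs at each time, and what it marks is not given in the sources used here.

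**Figure D4:**
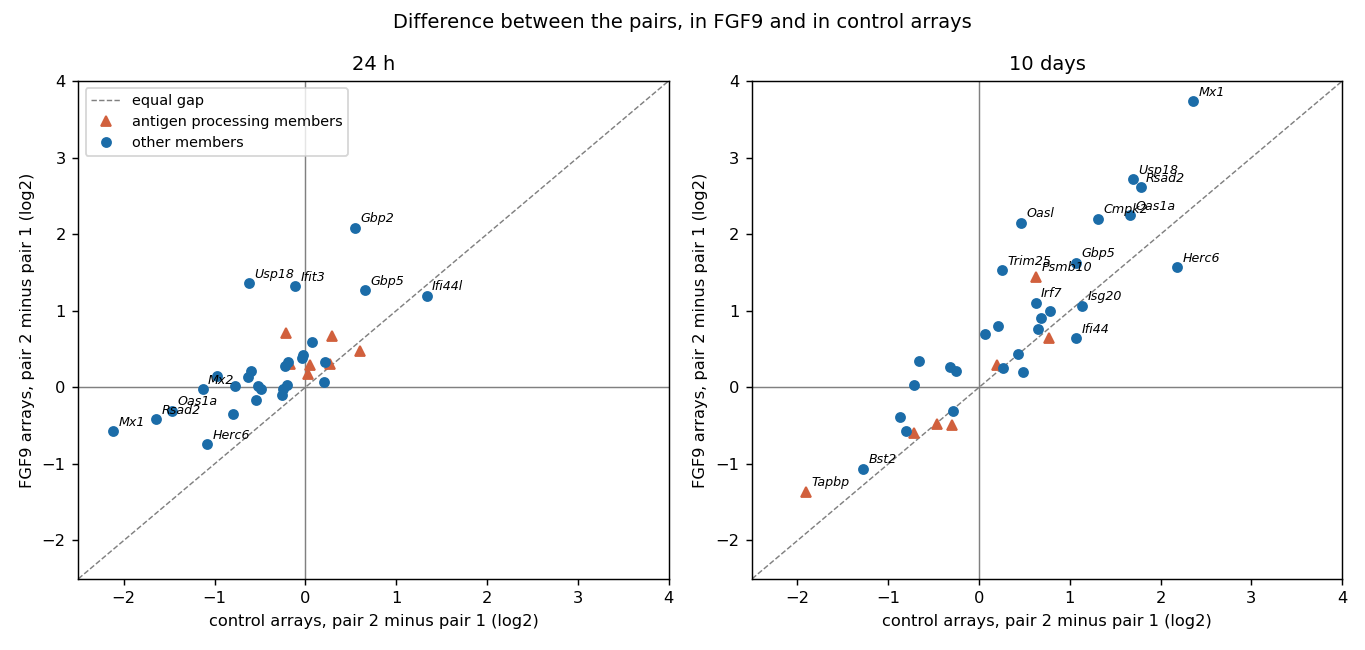
Log2 difference between the pairs, pair 2 minus pair 1, in FGF9 arrays (vertical axis) and control arrays (horizontal axis) for each measured member at 24 h (left) and 10 days (right); the dashed line marks equal gaps and triangles are antigen processing members. At 10 days Mx1, Usp18 and Rsad2 are far above 0 on both axes, and at 24 h Mx1, Rsad2, Oas1a and Mx2 are far below 0 on the control axis.

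For most microglia and macrophage markers the FGF9 difference changed sign between the pairs. At 24 h 18 of 19 markers were lower in FGF9 than in control in pair 1 and 4 of 19 in pair 2, and at 10 days 17 of 19 and 4 of 19. Of all 14506 genes 7410 and 7261 were lower in these pairs at 24 h, and 7010 and 7038 at 10 days. None of the 19 passed in limma at either time with the block. Their summed level, as log2 of the summed linear signal, was 13.38 and 12.94 in FGF9 arrays and 13.78 and 12.65 in control arrays at 24 h. At 10 days it was 12.84 and 12.82 in FGF9 arrays and 13.31 and 12.43 in control arrays, so the groups overlapped at both times. Markers with a value below 6 in some array reached 5.38 for Itgam, 5.69 for Aif1, 5.86 for Trem2 and 5.93 for Spi1, and no marker was at 0. The control array of pair 1 at 24 h had the highest summed level of the 8 arrays, and it also had the highest values of Usp18, Isg15, Rsad2, Mx1 and Mx2 among the 24 h arrays. The control array of pair 2 at 10 days had the lowest summed level of the 8 arrays, 12.43. Each of these genes was higher in it than in the control array of pair 1 at 24 h. The values were 8.64 for Usp18, 7.59 for Isg15, 8.14 for Rsad2, 8.34 for Mx1 and 10.46 for Mx2. Other members were lower in it, such as Irf9 (8.64 against 9.75), Irf8 (6.44 against 7.46) and Bst2 (6.60 against 7.37). These control arrays differ also in time and in name prefix. Several other marker lists were mostly lower in both pairs at 24 h, beside 32.9% of all genes. These were 9 of 9 astrocyte markers, with a median of -0.70, 8 of 9 fibroblast and pericyte markers, 10 of 11 neuron markers and 6 of 8 oligodendrocyte and myelin markers. Of 9 endothelial markers 1 was lower and 5 were higher in both pairs, and of 11 lymphocyte markers 1 was lower and 6 were higher. Of all genes 31.8% were higher in both pairs at 24 h. The summed astrocyte level at 24 h was 14.96 and 14.64 in FGF9 arrays and 15.55 and 15.59 in control arrays, without overlap, and no marker of these lists passed at 24 h. At 10 days 10 of 11 neuron markers and 2 of 9 astrocyte markers were lower in both pairs, beside 30% of all genes. So were 3 of 9 fibroblast and pericyte markers and 2 of 8 oligodendrocyte and myelin markers. With the block 7 of the neuron markers fell, beside 3.31% of all genes, and without the block none passed. The pericyte marker Rgs5 rose by 2.09 ± 0.15 with the block (limma adjusted p = 0.0107) and did not pass without it (adjusted p = 0.17). Summed fibroblast and pericyte markers at 10 days were 13.45 and 11.38 in FGF9 arrays and 13.96 and 11.16 in control arrays. They thus lay further apart between the pairs than the microglia and macrophage markers did. The part of any of these cells in the differences of the interferon genes was not tested.

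Upstream genes of the pathway were followed through lists of other members. Of the 5 measured interferon genes, Ifna5 lay between 5.58 and 6.40, and the others lay below 6, near the low end, in every array. Ifnb1, interferon beta, had 5.27 and 5.29 in FGF9 arrays and 5.17 and 5.13 in control arrays at 24 h. At 10 days it had 5.34 and 5.35 in FGF9 arrays against 5.48 and 5.44 in control arrays. Ifng, interferon gamma, lay between 5.08 and 5.28 in all 8 arrays. Of 6 genes for receptors and their kinases, 2 rose with the block at 10 days and 0 fell, beside 3.12% and 3.31% of all genes. Jak2, the kinase of the interferon gamma and cytokine receptors, had 10.96 and 10.40 in FGF9 arrays and 9.98 and 9.51 in control arrays (0.94 ± 0.27; ± 0.13 with the block, adjusted p = 0.0237). Ifngr2, the signalling chain of the interferon gamma receptor, had 10.30 and 10.75 in FGF9 arrays and 9.35 and 9.84 in control arrays (0.93 ± 0.30; ± 0.15 with the block, adjusted p = 0.0291). Both FGF9 values of each gene were above both controls, and neither passed without the block (adjusted p = 0.672 and 0.728).

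Of 8 further signalling factors and inhibitors, 1 rose with the block at 10 days and 0 fell, beside 3.12% and 3.31% of all genes. This was Socs3, which inhibits Janus kinases, with 8.26 and 8.28 in FGF9 arrays and 6.73 and 6.11 in control arrays (1.85 ± 0.24, ± 0.18 with the block, adjusted p = 0.0173). Without the block Socs3 did not pass (limma adjusted p = 0.17). At 24 h none of the 14 genes of these lists passed, and Socs3 differed by 0.56 ± 0.24. Of 9 genes of nucleic acid sensing none passed at either time; the Toll-like receptor Tlr3 differed by 1.03 ± 0.45 at 10 days, with 0.17 and 1.89 in the pairs, and the kinase Ikbke by -0.66 ± 0.30.

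Another list of 37 interferon-stimulated genes was mostly lower at 24 h in the same 8 arrays. This list too was chosen with earlier results of these data known, and it holds relatives of members such as Oas1b and Oasl2. It is therefore no independent support. The median difference of the 37 genes was -0.22, with pair medians of -0.31 and -0.0069. In pair 1 32 genes were lower, in pair 2 19, and in both 17, beside 32.9% of all genes lower in both. Of all 14506 genes 7410 were lower in pair 1 and 7261 in pair 2. The groups did not overlap for 14 that were lower, beside 14.5% of all genes, and for 2 that were higher, beside 17.5% of all genes. None passed at 24 h. The smallest p-values belonged to Oas1b (-1.05 ± 1.17), the GTPase gene Irgm (-0.70 ± 0.30) and Oasl2 (-0.77 ± 1.14). At 10 days the median was -0.05, and with the block 2 rose and 1 fell, beside 3.12% and 3.31% of all genes. Ube2l6, the ISG15-conjugating enzyme, rose by 1.30 ± 0.24 (SE with the block, adjusted p = 0.0389), with 8.59 and 8.36 in FGF9 arrays and 7.77 and 6.57 in control arrays, and Tor3a by 0.81 ± 0.13 (adjusted p = 0.03). Without the block the SE was 0.49 for Ube2l6 and 0.25 for Tor3a, and neither passed (limma adjusted p = 0.84 and 0.715). Oasl2 fell, with 5.98 and 8.91 in FGF9 arrays and 7.56 and 10.07 in control arrays (-1.37 ± 0.22 with the block, adjusted p = 0.0279). Without the block its SE was 1.14 and it did not pass. Isg15 and its conjugating enzyme Ube2l6 had opposite signs at 10 days.

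Of 22 other antigen presentation genes, 0 rose and 1 fell with the block at 10 days, beside 3.12% and 3.31% of all genes. In both pairs 9 were higher and 3 lower, beside 33.2% and 30% of all genes. The gene that fell was the class I locus RT1-S3, with 6.20 and 7.92 in FGF9 arrays and 7.85 and 9.01 in control arrays (-1.37 ± 0.68, ± 0.23 with the block, adjusted p = 0.0304). Without the block it did not pass (limma adjusted p = 0.991). At 24 h RT1-S3 had 6.34 and 6.08 in FGF9 arrays and 7.89 and 6.88 in control arrays, and did not pass (adjusted p = 0.171 with the block). It is one of many similar class I genes of the rat, and the array may not separate them. The class II gene RT1-Da differed by 1.06 ± 1.05 at 10 days, with 8.55 and 5.53 in FGF9 arrays and 6.94 and 5.02 in control arrays, and did not pass. RT1-Bb, another class II gene, differed by 0.43 ± 0.33.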

How the data were processed

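Total RNA of 8 samples was measured on Affymetrix Rat Gene arrays. The authors deposited log2 values per feature, made with Partek 6.5 and GCRMA per the submitters' processing notes; the log2 scale was read from the range of the values. The interferon genes and all other lists were chosen with earlier results of these data known. Of 29214 features, 15310 had 1 gene symbol, 323 several and 13581 none, and the feature with the highest mean stood for each of 14506 genes. Group means were fitted with limma 3.58.1 in R 4.3.3 over all genes and 8 arrays, and p-values were adjusted by the Benjamini-Hochberg method with a threshold of 0.05. The fitting steps were run on simulated data drawn from the fit with the block, which cannot decide whether the block is right. Same-numbered arrays of a time were taken as pairs, because they share an array name prefix and their deviations from the group means correlated at 0.757 at 24 h and 0.819 at 10 days. Values with the pair as a block, or as a random effect with a consensus correlation of 0.654, are given where they change a call. Per-array values are given for the 5 members with the largest difference of one sign in both pairs and the 3 with the smallest p at each time, the 3 highest and 2 lowest members, every member that passed in any fit and, chosen after their values were seen, Dhx58, Tap2 and Psmb8. Up to 3 genes of each other list are named by their p-value, beside Ifnb1 and Ifng. Motifs were searched in RefSeq promoter windows of GRCr8. Alternatives were quantile normalization, subtracted array medians, dropped low genes, averaged features and arrays or pairs left out.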

Additional observations from a re-analysis of the deposited data

Results flagged for a closer look

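For 4 of 35 members (11.4%) both pairs were lower at 24 h and both were higher at 10 days, beside 7.8% of all genes with that pattern. The FGF9 effect at 10 days minus that at 24 h was 1.32 for Herc6, 0.505 for Tapbp, 0.41 for B2m and 0.317 for Isg20. The difference was tested in limma as an interaction over all genes, and none of the 4 passed, with adjusted p-values with the block of 0.237 for Herc6, 0.449 for Tapbp, 0.453 for B2m and 0.54 for Isg20, and of 1 for each without it. The standard errors without the block were 1.22 for Herc6, 0.98 for Tapbp, 0.29 for B2m and 0.68 for Isg20.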

How the results depend on the processing

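With 2 arrays a group, calls rest on how the pairs are treated. With the replicate block 933 genes and 1 member (Tap1) passed at 10 days, with the pair as a random effect 151 genes and 0 members, and without a block 0 genes; at 24 h 0 genes passed in these 3 fits. Of the interaction 7 genes passed with the block and 4 with the random effect, and of control cultures over time 1 with the block. In the block fit without either 24 h pair 469 genes and 1 member (Mx2, not Tap1) passed at 10 days. Without pair 1 at 10 days 1506 genes and 1 member (Oasl) passed, and without pair 2 at 10 days 569 genes; these fits compare 1 FGF9 array with 1 control array at 10 days, take the spread from the 24 h arrays and say nothing of stability. Without either 10-day pair 237 genes and 1 member (Cmpk2) passed at 24 h. Interaction genes numbered 1 without pair 1 at 24 h, 322 without pair 1 at 10 days and 9 without pair 2 at 10 days, and control time genes 2 without pair 1 at 24 h and 2 without pair 2 at 10 days. The block fits without a pair had 1 residual degree of freedom, against 2 with all pairs. Their calls, also those of Mx2 and Cmpk2, say nothing of stability. With array medians subtracted 6 genes passed at 10 days without a block, and members lower in both pairs numbered 11 against 7. Counted from a single pair, 8 members were lower at 10 days in pair 2 and 22 in pair 1, beside 7038 and 7010 of 14506 genes. In the block fit without pair 1 at 24 h, Oas1a (0.104) and Oasl (0.221) changed sign at 24 h, and without pair 2 at 24 h, Ifit3 (-0.0616) and Tap1 (-0.0843) did. At 10 days Mx1 (0.618), Cmpk2 (0.124), Ifit3 (0.345) and Gbp2 (0.0514) changed sign without pair 1, and Oasl (-0.316) and Eif2ak2 (-0.104) without pair 2. Leaving out each array in turn, the member median ran from -0.344 to -0.0631 at 24 h and from -0.311 to 0.408 at 10 days. Single members that changed sign ran at 24 h from -1.94 to 0.174 (Mx1), -1.21 to 0.255 (Oas1a), -0.478 to 0.117 (Oasl), -0.0043 to 1.31 (Ifit3), -0.0019 to 0.308 (Tap1) and -0.292 to 0.0018 (B2m). At 10 days they ran from -1.94 to 1.8 (Mx1), -2.13 to 0.113 (Oas1a), -0.546 to 1.6 (Oasl), -1.9 to 0.717 (Rsad2), -1.42 to 0.78 (Cmpk2), -0.496 to 0.171 (Ifit3) and -0.624 to 0.243 (Gbp2). The cause was not tested. Quantile normalization, dropping genes of low mean and averaging features changed no direction or call among the results tried, and values below 6, near the low end of the arrays, limit the precision of Oasl and Ifit3 (7 of 8 arrays each), Isg20 (6) and Rsad2, Mx1 and Herc6 (4 each).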
